A study of Mus musculus with 8 samples.

Results

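The globins are the oxygen-carrying chains of haemoglobin, and 6 mouse globin genes were followed here through sorted hindlimb cells: the embryonic genes Hba-x, Hbb-y and Hbb-bh1, and the adult genes Hba-a1, Hbb-b1 and Hbb-b2. Members were all probes that the platform annotation names with 1 of these 6 symbols, which gave 7 probes for 5 genes out of 45281 probes on the array. No probe carries the symbol Hbb-b1. In that annotation the adult beta chains are named mainly Hbb-bs and Hbb-bt, and the 10 probes with those 2 symbols are described beside the members. Of the 7 member probes, 6 were above background on enough arrays to be tested, and the second Hbb-bh1 probe was above background on 0 of 8 arrays.

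A haemoglobin molecule pairs alpha-like with beta-like chains, each holding a haem group. In the mouse embryo the first red cells, made in the yolk sac, carry embryonic chains encoded by Hba-x (zeta globin), Hbb-y (epsilon-y globin) and Hbb-bh1 (beta-h1 globin), and they already make adult alpha chains. The definitive red cells that the foetal liver sends out make adult alpha and beta chains and little of the embryonic ones, so blood of midgestation holds both kinds. The alpha-like genes lie together on mouse chromosome 11 and the beta-like genes on chromosome 7.

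The samples were 4 arrays of Bapx1 null cells and 4 arrays of Bapx1 wildtype cells from hindlimbs of E12.5 embryos of mixed C57BL/6J;129 background. Cells of both genotypes were sorted for EGFP, which was driven by the Bapx1 locus in each. Null embryos were homozygous for an allele in which EGFP follows the start codon of the homeobox gene Bapx1 (Nkx3-2). Wildtype embryos carried EGFP behind an internal ribosomal entry site at the end of an intact Bapx1 transcript, in a line that the methods write as heterozygous. The methods call the arrays biological replicates but the sources used here do not say how many embryos went into each, so every p-value below rests on the spread among the 8 arrays alone. The sort selects EGFP, not blood cells, and in bulk RNA a larger number of red cells and more globin RNA per cell cannot be told apart. Which of the beta haplotypes each sample carried, the single one with Hbb-bs and Hbb-bt or the diffuse one with Hbb-b1 and Hbb-b2, was not stated in the sources used here.

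Arrays detected between 18375 and 20256 probes, and 149 of 19568 tested probes were called, 63 higher and 86 lower on the null arrays (limma, adjusted p under 0.05). The median log2 fold of all tested probes was -0.03. Bapx1 itself was detected on all 4 null arrays (intensities of 481.1, 291.5, 243.1 and 253.1 for one probe) and on 0 of 4 wildtype arrays. Null cells were at least 10.4-fold higher by that probe and 8.07-fold or more by the other (limma adjusted p = 9.52e-05 for each). Where its 2 probes lie relative to the sequence altered by the targeting was not stated in the sources used here. The direction is opposite to that of a probe inside deleted sequence. Wildtype cells were sorted for EGFP from this locus, with its transcript described as intact, yet gave no signal above background by either probe. The probes thus check neither label, and whether the labels were exchanged was not tested. An exchange would reverse every direction below. Directions below follow the genotypes with which the arrays are labelled. Markers of hindlimb mesenchyme (Pitx1, Tbx4, Prrx1 and Sox9) were detected on all 8 arrays. Of 11 genes of that list 0 were called, with the smallest p for Prrx1 (log2 fold 1.18, limma adjusted p = 0.0994), the cartilage collagen Col2a1 (-0.63, 0.134), the homeobox gene Msx1 (1.43, 0.29) and Pitx1 (0.59, 0.417). Msx1 had intensities of 167.0, 253.5, 508.5 and 1167.4 on null arrays 1 to 4 and of 213.7, 152.6, 193.1 and 110.8 on wildtype arrays 1 to 4, so that null 4 and then null 3 were highest, as for the globins below.

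Embryonic globins had higher means on the null arrays on all 4 probes tested, and so had adult globins on both member probes, but of the 6 only Hbb-bh1 passed the test. Over all tested probes, 0.322% were called higher. Folds of the 6 probes lay close together, with a median log2 fold of 2.38, while the arrays within the null genotype lay far apart.

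Hbb-bh1 encodes the beta-like chain of the earliest yolk sac red cells. Its intensities were 1022.9, 330.9, 1505.2 and 2767.9 on null arrays 1 to 4, against 115.1, 162.4, 156.3 and 163.8 on wildtype arrays 1 to 4. The lowest null array thus lay above the highest wildtype array, and null 4 was the brightest of the 8. After normalization the log2 level was 10.25 ± 1.07 in null cells and 7.28 ± 0.55 in wildtype cells (SD, n = 4 each). Hbb-bh1 rose 7.83-fold, a log2 fold of 2.97 ± 0.49 (SE, limma adjusted p = 0.0311), which ranked 3 among all tested probes by log2 fold. The other probe of the gene, with intensities between -4.9 and 15.5, was not above background on any array and gives no second reading. The call was lost without wildtype 1, 2 or 3 (limma adjusted p = 0.0908, 0.0595 and 0.121) and without null 1 or 3 (0.0646 and 0.0946), while the log2 fold stayed between 2.54 and 3.41 over all 8 such fits. It was also lost under scaling by median absolute deviation, which the methods name (log2 fold 3.13, adjusted p = 0.0741).

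Hba-x encodes zeta globin, the embryonic alpha-like chain. The null arrays read 702.4, 186.3, 955.4 and 1665.3 in intensity, and the wildtype arrays 152.8, 146.7, 147.4 and 113.9. Groups did not overlap, although null 2 lay nearer to the wildtype arrays than to the other null arrays. Normalized log2 levels averaged 9.59 ± 1.10 in null and 7.21 ± 0.23 in wildtype cells (SD, n = 4 each), a difference of 2.38 ± 0.46 (SE) that missed the threshold (limma adjusted p = 0.0601). Without null 2 it passed, with a log2 fold of 2.86 and an adjusted p of 0.00863.

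Hbb-y encodes epsilon-y globin, the main embryonic beta-like chain of later yolk sac red cells. The brighter of its probes gave intensities of 7256.9, 2107.6, 11022.7 and 19385.8 on null arrays 1 to 4 and of 1655.5, 2514.7, 1720.4 and 1518.2 on wildtype arrays 1 to 4. By intensity null 2 lay below wildtype 2. After normalization the order of those arrays turned, at 11.47 on null 2 against 11.35 on wildtype 2, so for this gene an overlap of the groups depends on the normalization. The log2 fold was 2.27 ± 0.52 (SE, limma adjusted p = 0.111) by this probe and 2.25 ± 0.55 (adjusted p = 0.139) by the other, whose normalized levels on null 2 and wildtype 2 were 11.12 and 11.19. Both probes passed without null 2, at log2 folds of 2.77 and 2.80 (adjusted p = 0.0212 and 0.0235).

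Hba-a1 encodes an adult alpha chain, which embryonic red cells make as well. Intensities on the null arrays were 2897.2, 1111.3, 5934.6 and 14421.9, and those on the wildtype arrays were 1129.1, 1171.7, 864.4 and 583.4. Null 2 lay inside the wildtype range by intensity and just above it after normalization (10.61, with wildtype 2 at 10.29). The normalized mean was 12.12 ± 1.38 in null and 9.75 ± 0.37 in wildtype cells (SD, n = 4 each). The log2 fold of 2.37 ± 0.58 (SE) did not pass (limma adjusted p = 0.139), nor did it pass without any single array (0.0583 to 0.378). Hba-a2 is a near-identical copy of the gene, so which of these adult alpha genes the probe read is uncertain.

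Hbb-b2 encodes the minor adult beta chain of the diffuse haplotype, and was the dim member. Its null arrays gave intensities of 118.5, 27.3, 889.2 and 915.5, against 68.7, 2.2, 28.5 and 51.7 on the wildtype arrays, of which wildtype 2 was not above background. Here the null arrays fell into a bright pair, 3 and 4, and a dim pair, 1 and 2, of which null 2 lay within the wildtype range. The log2 fold was 2.53 ± 0.90 (SE, limma adjusted p = 0.327), with means of 8.12 ± 2.06 in null and 5.60 ± 0.82 in wildtype cells (SD, n = 4 each).

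**Figure D1:**
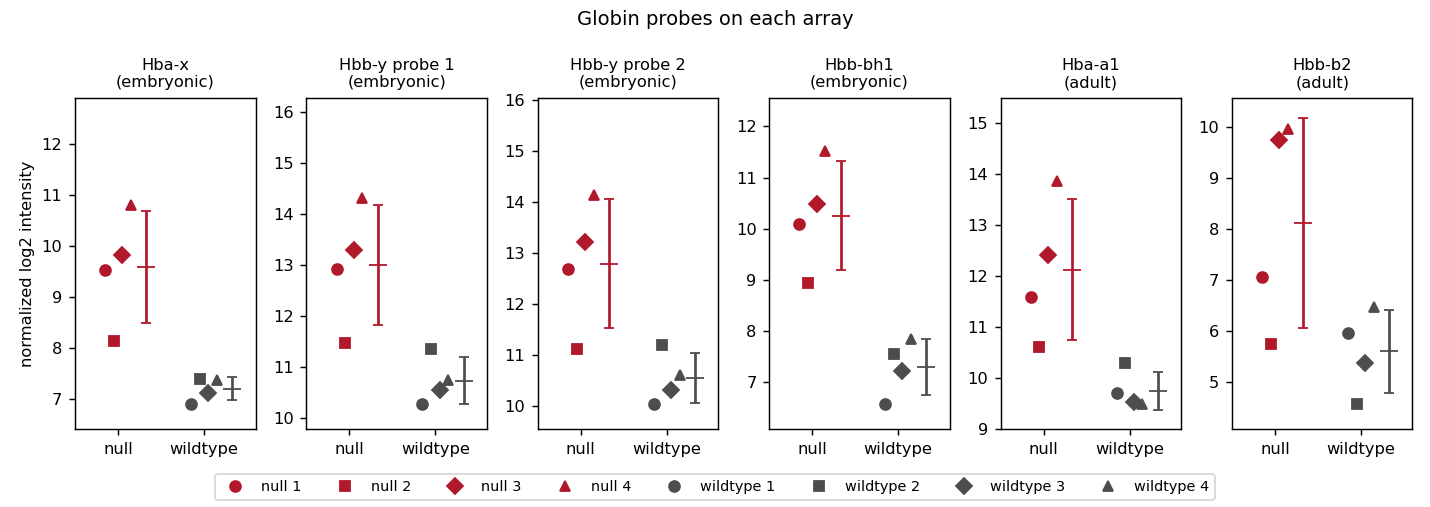
Normalized log2 intensity of the 6 tested globin probes on each array, null left of wildtype, with the array's replicate number given by the symbol and the mean ± SD (n = 4) beside the points. Each panel has its own log2 axis of equal length, so levels are to be compared within a panel. Null 4 is the highest point and null 2 the lowest null point in every panel.

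As a single value per probe, the difference of means was also compared over the 70 ways of labelling 4 of 8 arrays, a two-sided exact permutation test whose smallest possible p is 0.0286. Hba-x, Hbb-bh1, Hba-a1 and the brighter Hbb-y probe reached that smallest value. The other Hbb-y probe gave an exact p of 0.0571 and Hbb-b2 gave 0.0857. After normalization the lowest null array lay above the highest wildtype array on the same 4 of the 6 probes, a pattern seen on 2.55% of all tested probes. With 4 arrays a group, that separation fixes the exact p at its smallest value, so the 2 readings are the same fact. The exact p-values are not adjusted for the number of probes. By the deposited intensities the separation held for 2 of the 6, Hba-x and Hbb-bh1, against 0.889% of all tested probes.

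The 10 adult beta probes named Hbb-bs or Hbb-bt had log2 folds between 1.23 and 2.52 with a median of 2.28, and 0 of the 10 passed (limma adjusted p between 0.221 and 0.578). At an unadjusted p under 0.05 there were 9 of 10, against 11.3% of all tested probes. The 10 probes carry only 2 gene symbols and were read on the same 8 arrays, so they are not separate readings. These genes are the adult beta chains of the single haplotype, which C57BL/6 mice carry. The brightest Hbb-bs probe had log2 levels of 10.43, 9.62, 12.13 and 13.27 on null arrays 1 to 4 and of 8.71, 9.47, 8.58 and 9.28 on wildtype arrays 1 to 4, a log2 fold of 2.36 ± 0.69 (SE, limma adjusted p = 0.235). An Hbb-bt probe read 9.99, 9.19, 11.77 and 13.00 in null cells and 8.22, 9.03, 8.05 and 8.56 in wildtype cells, a log2 fold of 2.52 ± 0.72 (adjusted p = 0.221). On both, null 2 stood just above wildtype 2, the highest wildtype array, so that after normalization the groups did not overlap, as held for 2 of the 10 probes (2.55% of all tested probes). By deposited intensity null 2 lay below wildtype 2 on both, at 545.6 against 653.2 for Hbb-bs and 399.0 against 477.5 for Hbb-bt, and the groups overlapped on all 10 probes (0.889% of all tested probes did not overlap). Another Hbb-bt probe differed from the rest, at 9.05, 6.60, 10.17 and 10.25 in null cells and 6.99, 8.40, 7.45 and 8.30 in wildtype cells, with null 2 below every wildtype array and a log2 fold of 1.23 ± 0.74 (adjusted p = 0.578). Adult beta genes are near-identical in sequence, so the assignment of these probes to single genes is uncertain.

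The order of the null arrays was the same for embryonic and adult genes. After normalization, on all 16 globin probes above background (the 6 members and the 10 Hbb-bs or Hbb-bt probes), null 4 was highest, then null 3, then null 1, and null 2 was lowest. By deposited intensity this order held on 15 of the 16, the exception being an Hbb-bt probe with 1209.3 on null 3 and 1123.5 on null 4. All 16 log2 folds were above 0 and 1 of the 16 was called. The SD among null arrays was above 1 on each of the 16 probes, between 1.07 and 2.06, and that among wildtype arrays between 0.23 and 0.82. Over all tested probes the median SD was 0.21 among null and 0.24 among wildtype arrays, and 0.388% of probes had a null SD above 1. Null arrays differed from each other by 7.23-fold on the brighter Hbb-y probe, 9.58-fold on Hba-a1 and 18.5-fold on Hbb-b2, where wildtype arrays differed by 2.11-fold, 1.73-fold and 3.76-fold. Among wildtype arrays, wildtype 2 was the highest on 13 of the 16 probes after normalization and on 12 by deposited intensity. The lowest depended on the scale, being wildtype 1 on 10 probes after normalization and wildtype 4 on 11 by intensity.

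**Figure D2:**
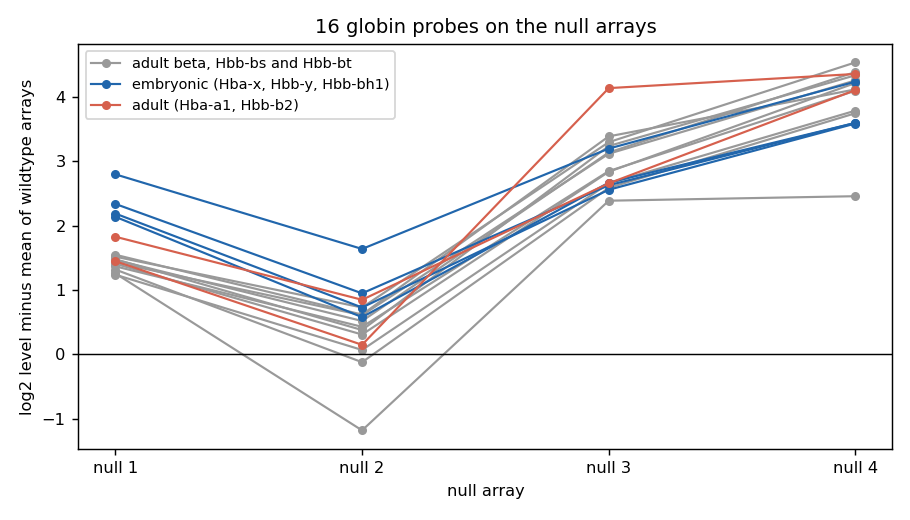
Log2 level on each null array minus the mean of the 4 wildtype arrays, for the 16 globin probes above background; each line joins the values of 1 probe, and the replicates have no order. All 16 lines are lowest at null 2 and highest at null 4, and the Hbb-bt probe that differs from the rest is the one at -1.18 on null 2.

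Summed over the 16 probes, globin intensity was 25489.8, 7972.6, 56838.0 and 106463.8 on null arrays 1 to 4, against 7511.5, 10376.6, 6913.1 and 6235.7 on wildtype arrays 1 to 4. As a share of the positive intensity of an array this was 0.167%, 0.068%, 0.331% and 0.703% in null cells and 0.036%, 0.0679%, 0.0384% and 0.0442% in wildtype cells. Null 2 thus gave nearly the same share as wildtype 2, and the other null arrays gave more than any wildtype array.

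Embryonic and adult globins were then set side by side as each gene's deviation from its own wildtype mean, with 1 probe per gene. The mean deviation of the 3 embryonic genes was 2.44, 1.11, 2.80 and 3.81 on null arrays 1 to 4, and that of the 2 adult genes was 1.64, 0.50, 3.40 and 4.24. The difference, embryonic minus adult, was 0.80, 0.61, -0.60 and -0.43 on null arrays 1 to 4, with a mean of 0.09 ± 0.71 (SD, n = 4), against -0.66, 0.60, 0.12 and -0.06 on wildtype arrays 1 to 4 (SD 0.52, n = 4). The mean difference was thus smaller than the spread among the arrays of either genotype. Its sign split the null arrays, with embryonic genes ahead on null 1 and 2, where globins were lowest, and adult genes ahead on null 3 and 4. No test was made of this split, since it was seen in the same values.

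Within the loci the same comparison was made gene by gene. For the alpha-like pair, Hba-x minus Hba-a1 was 0.51, 0.09, -0.03 and -0.51 on null arrays 1 to 4 and -0.25, -0.34, 0.15 and 0.44 on wildtype arrays 1 to 4, a mean difference between genotypes of 0.01. For the beta-like pair, Hbb-y minus Hbb-bs was 0.76, 0.12, -0.56 and -0.68 in null cells and -0.16, 0.16, 0.24 and -0.24 in wildtype cells, a mean difference of -0.09. Among null arrays both pairs were highest on null 1 and lowest on null 4, and for the alpha-like pair the wildtype arrays spread nearly as widely. Hbb-bh1 minus Hbb-bs was 1.37, 1.03, 0.07 and -0.02 on the null arrays and -0.43, -0.20, 0.34 and 0.29 on the wildtype arrays, a mean difference of 0.61, so the gene that passed the test was ahead of adult beta mainly on null 1 and 2. Hbb-b2, read at low intensity, gave wider values when set beside Hbb-y (0.74, 0.58, -1.58 and -0.77 on the null arrays, and -0.82, 1.64, 0.04 and -0.86 on the wildtype arrays).

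**Figure D3:**
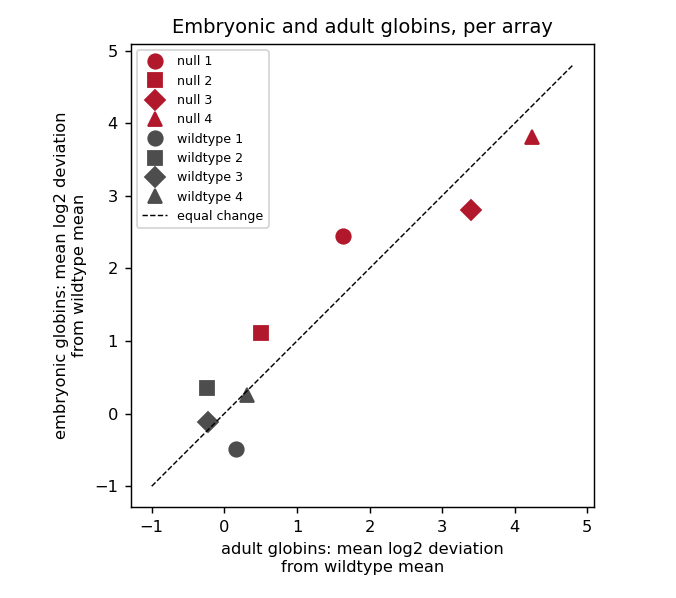
Mean log2 deviation from the wildtype mean of the embryonic globins (Hba-x, Hbb-y, Hbb-bh1; vertical axis) against that of the adult globins (Hba-a1, Hbb-b2; horizontal axis), 1 point per array, with a dashed line of equal change. Null 1 and 2 lie above the line and null 3 and 4 below it.

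Promoter sequence was at hand for the members Hba-x, Hbb-y and Hba-a1 and for Hbb-bs and Hbb-bt. It was missing for Hbb-bh1, the gene that was called, and for Hbb-b1 and Hbb-b2. The 5 promoters share letters that the choice of members did not use. Stretches around 2 motifs are shown, and any link of these motifs to the array values was not tested. Sequences are from RefSeq (mouse GRCm38.p6), 5′ to 3′ on the strand of the gene, and capitals mark the motif. The first is CACCC, the letters of the element that the red cell factor Klf1 binds in adult beta promoters.
Hba-x: gataacaggctcCACCCtgcaagccccct
Hbb-y: atgacctggctcCACCCatgaggaccacg
Hba-a1: caagggcgtgtcCACCCtgcctggaggac
Hbb-bs: tccgtagagccaCACCCtggtaagggcca
Hbb-bt: cctgcagggtaaCACCCtggcattggcca
These lie at chr11:32276493-32276521 (+), chr7:103853302-103853330 (-), chr11:32283600-32283628 (+), chr7:103828002-103828030 (-) and chr7:103813996-103814024 (-), in the order of the list. Counted from the gene start, the printed copy begins at -95 in Hba-x, -111 in Hbb-y, -60 in Hba-a1, -90 in Hbb-bs and -89 in Hbb-bt. Further copies lay at -198 in Hba-x, at -167 in Hba-a1, and at -140 and -104 in Hbb-bt. CACCC, on either strand, was in all 5 windows of 250 bases before and 50 after the start, and in 57.5% of the 32851 promoters of the same table, so its presence alone sets the globins little apart. The stretch printed for Hba-x also opens with GATAA, the letters that GATA factors bind, found in 25.4% of promoters on either strand. GATAA was also in the windows of Hba-a1 (-182), Hbb-bs (-209), Hbb-bt (-204) and, on the opposite strand, Hbb-y (-162).

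The other motif is the TATA element near the start, which differs in letters between the embryonic genes Hba-x and Hbb-y.
Hba-x: tgaccatgtgtaTATAAaggagacactgg
Hbb-y: tgtctgtgaagcATAAAaggccaccactt
Hba-a1: ccttggagggcaTATAAgtgctacttgct
The stretches lie at chr11:32276560-32276588 (+), chr7:103853219-103853247 (-) and chr11:32283633-32283661 (+), with the motif starting at -28, -28 and -27. TATAA was in 24.9% and ATAAA in 40.0% of promoters on either strand, and the searches overlap, since TATAAA holds both. The Hbb-y window had no TATAA, whereas Hba-x, Hba-a1, Hbb-bs and Hbb-bt had it at -28, -27, -29 and -28. CCAAT, a letter run of many promoters (37.4% on either strand), was at -83 in Hbb-y, -88 in Hba-a1, -76 in Hbb-bs and -75 in Hbb-bt. The search found no CCAAT in Hba-x. A match is a run of letters and was not tested for binding.

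Beside the globins, 34 genes of red cell regulation, haem and iron handling, globin protection and the red cell membrane were tested by their brightest probes. Of these, 1 was called higher and 1 lower, 15 log2 folds lay above 0 and 19 below, and the median was -0.02, against -0.03 over all tested probes. Apart from Alas2 and Slc4a1, described next, the log2 folds of these genes lay between -0.91 and 0.68, below those of every member probe. The lists include genes that were bright in wildtype cells too, such as Ldb1 (intensities of 7481.9 to 9387.1) and Prdx2 (6772.2 to 13036.1). How much of the signal of such genes came from red cells was not tested. The median therefore cannot decide whether genes specific to red cells changed.

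Among regulators of globin genes (9 tested), Bcl11a, a repressor of embryonic beta-like globins, was called higher. Its log2 levels were 11.51, 11.54, 11.62 and 11.49 on null arrays 1 to 4 and 10.83, 10.72, 10.80 and 11.07 on wildtype arrays 1 to 4, a 1.61-fold difference (log2 fold 0.68 ± 0.11 SE, limma adjusted p = 0.0316). Its null arrays lay close together and did not follow the order of the globins. A second probe gave 1.44 (adjusted p = 0.0791), and the call of the first held in 1 of 8 fits with an array left out, that without wildtype 4 (adjusted p between 0.0254 and 0.122). It was lost too with a replicate block (0.103), under scaling by median absolute deviation (1.0), with no normalization (0.625), in the deposited log2 table (0.375) and under the methods' test (0.0523). Nfe2, the transcription factor of red cells and megakaryocytes that binds the beta globin control region, was called lower, at 5.52, 5.88, 6.05 and 5.80 in null cells and 6.52, 6.73, 6.83 and 6.80 in wildtype cells (log2 fold -0.91 ± 0.14 SE, adjusted p = 0.0224). That call held without wildtype 1, null 1 or null 3 and was lost without any of the other 5 arrays (adjusted p up to 0.0968), and also under scaling by median absolute deviation (0.554), with no normalization (0.0762) and under the methods' test (0.0804). Klf1, the activator of adult beta globin, had a log2 fold of 0.02 ± 0.15 (SE, limma adjusted p = 0.966). Its probe was dim, with intensities between 15.4 and 32.3, so a change could be understated there. Lmo2 gave -0.37 (0.407) and Myb -0.31 (0.525), while the matched probes of Gata1 and Tal1 were detected on 0 arrays.

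In the haem and iron list (13 tested, 0 called, median -0.07), Alas2 stood apart from the rest. It is the red cell form of the enzyme that starts haem synthesis. Its intensities were 55.5, 22.0, 115.3 and 268.5 on null arrays 1 to 4, all above background, against 10.2, 10.4, 14.3 and 9.9 on wildtype arrays 1 to 4, none of them above background. Null cells were thus at least 3.07-fold higher, taking the lowest detected signal of each wildtype array, with an adjusted p of 0.172 in the limma fit. Alas2 met the detection filter through the null arrays alone, so its place among the tested genes depended on being high there. Cpox, a later enzyme of the pathway, gave a log2 fold of -0.56 (adjusted p = 0.464), the transferrin receptor Tfrc 0.12 and the ferritin chain Ftl1 -0.17. The list therefore did not move as a whole with the globins. It holds genes that were bright on the wildtype arrays too, such as Fth1 (intensities of 16398.6 to 21494.9) and Urod (4377.7 to 6084.9). Others, such as Fech (31.3 to 81.4), were dim there. The part of red cells in these signals was not tested, so the median of the list cannot decide whether their red cell RNA changed.

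In the membrane list (7 tested, 0 called, median 0.05), Slc4a1, the anion exchanger band 3 of the red cell membrane, had the order of the globins. Its intensities were 254.1, 80.5, 351.0 and 711.5 in null cells and 33.7, 76.5, 26.4 and 61.2 in wildtype cells, a log2 fold of 2.33 ± 0.53 (SE, limma adjusted p = 0.108). Null 2 lay close to wildtype 2, as for Hbb-y. The other members lay nearer 0, with Aqp1 at 0.39, Xk at 0.13 and Cd24a at -0.24. Sptb (0.05) and Ank1 (-0.02) had the order of the globins too, as had Alas2, Klf1 and Tfrc in the other red cell lists. So had Hoxc10 of the hindlimb mesenchyme list (log2 fold -0.1). The share of all tested probes with this order was not counted, so the order alone does not set red cell genes apart. In the list of protective and metabolic red cell proteins (5 tested, 0 called, median -0.03), Cat gave -0.34, Blvrb 0.17, Gpx1 0.15 and Bpgm -0.07. Of 33 matched red cell probes below the detection filter, 7 were detected on more null than wildtype arrays, 4 on more wildtype than null arrays and 21 on none. Ahsp, the alpha chain chaperone, had no probe under that symbol.

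**Figure D4:**
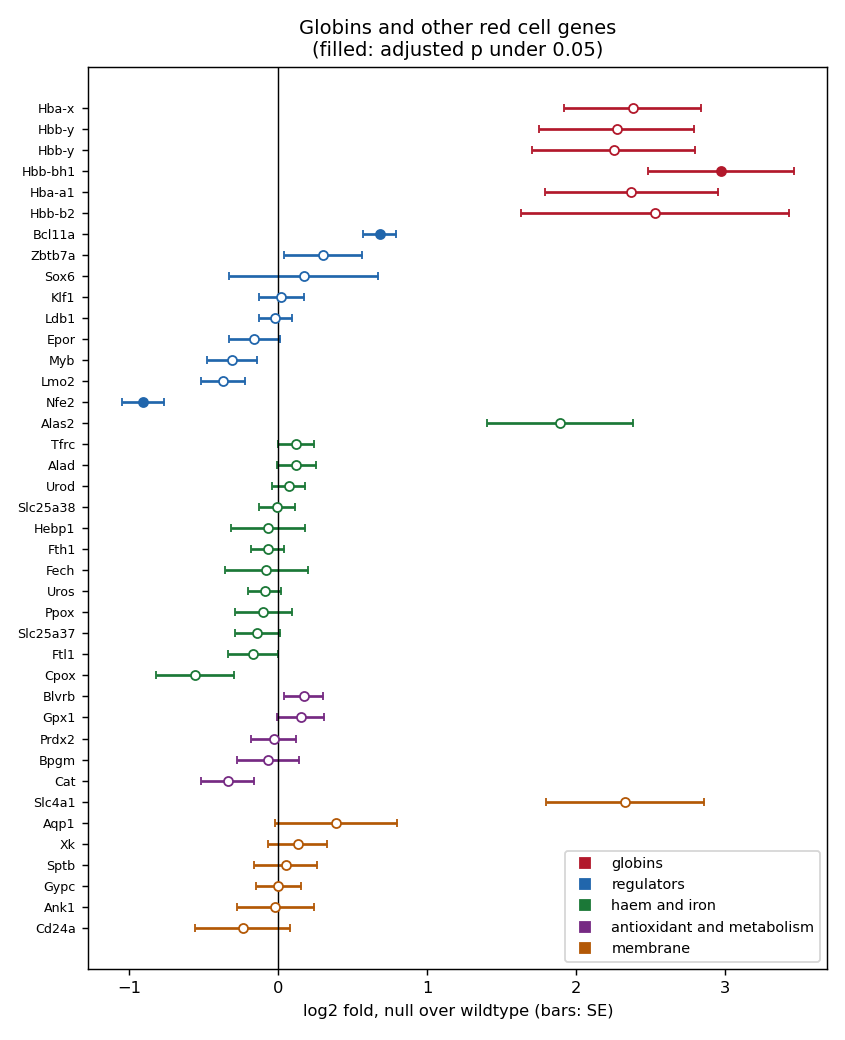
Log2 fold of null over wildtype (horizontal axis, bars SE) for the 6 tested globin probes and the 34 other red cell genes, grouped by colour; filled points have a limma adjusted p under 0.05. Globins, Alas2 and Slc4a1 lie at 1.89 or above, while the other genes lie between -0.91 and 0.68. Alas2 met the detection filter through the null arrays alone.

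Of other members of the globin superfamily, the brain globin Ngb had a log2 fold of -0.38 ± 0.16 (SE, limma adjusted p = 0.41) and cytoglobin Cygb 0.09 ± 0.26 (0.932). Myoglobin (Mb) and the theta globins Hbq1a and Hbq1b were detected on 0 arrays.

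By Pearson's r over the 8 arrays, the genes outside the members whose levels ran most like the mean embryonic profile were Slc4a1 (0.978), Dyrk3 (0.970), Alas2 (0.963), Hbb-bt (0.958), Hbb-bs (0.958) and Bcl11b (0.934). For the adult profile they were Alas2 (0.983), Hbb-bs (0.983), Hbb-bt (0.981), Dct (0.959), Gdap1 (0.954) and Tbx2 (0.939). The values describe likeness only, and since the 8 arrays fall into 2 genotypes, r counts the difference between genotypes together with the order within them. None of these genes passed the test, with log2 folds of 0.45 for the kinase Dyrk3, 0.92 for the zinc finger factor Bcl11b, 1.01 for the pigment cell enzyme Dct, 0.31 for Gdap1 and 0.65 for the T-box factor Tbx2 (limma adjusted p = 0.161, 0.0657, 0.352, 0.461 and 0.42). Alas2, Hbb-bs and Hbb-bt stood in both lists, and Alas2 was above background on the null arrays only.

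Markers of other blood and vessel cells were read on the same arrays. Of 12 genes of megakaryocytes and platelets, 10 fell (limma, adjusted p under 0.05) with a median log2 fold of -2.45, against 0.439% of all tested probes called lower. Under scaling by median absolute deviation 0 of the 12 were called and under the methods' test 3, with 11 of the 12 log2 folds below 0 in both. Their summed intensity was 304.1, 914.3, 1463.9 and 581.4 on null arrays 1 to 4, against 5993.1 to 8145.4 on the wildtype arrays. Their order on the null arrays was not that of the globins. Of the macrophage genes (9 tested, 0 called, median -0.41), Vcam1, which other cells also express, held most of the summed intensity. The other 8 summed to 96.5, 144.9, 355.3 and 733.8 on null arrays 1 to 4, against 527.3 to 627.6 on the wildtype arrays, and the macrophage marker Adgre1 was at 4.57, 5.23, 6.15 and 7.28 in null cells and 6.00, 6.78, 6.52 and 7.26 in wildtype cells. On the null arrays null 4 was thus highest and null 3 next, as for the globins, but null 1 and not null 2 was lowest. C1qa was detected on 0 arrays. Endothelial genes (12 tested, 0 called, median -0.40) summed to between 1479.8 and 2392.8 in null and between 2256.2 and 3681.7 in wildtype cells. The part of these cells, and of red cells carried through dissection and sorting, in the globin values was not tested.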

How the data were processed

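Total RNA of sorted hindlimb cells was hybridized to Illumina MouseWG-6 v2.0 arrays, 1 per sample. The deposited intensities are the authors' GenomeStudio output, background-subtracted and not normalized between arrays. Its version was not stated in the sources used here. The deposited detection score runs from 0 to 1 with intensity, so the detection p was taken as 1 minus the score. The authors' deposited log2 table served as an alternative. It is shifted by a constant per array and per probe (column medians of 0.01, 0.17, 0.10 and 0.03 for null and -0.03, -0.03, -0.04 and 0.42 for wildtype arrays 1 to 4), and how the constant per probe was set is unknown. Its probe names were carried to the intensities by matching values, which named all 19568 tested probes, and gene symbols came from the platform annotation.

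Intensities were put through neqc (normexp, offset 16, quantile normalization) in limma 3.58.1 under R 4.3.3. A probe was tested if its detection p was under 0.05 on 4 or more of the 8 arrays. Null was compared with wildtype by lmFit and eBayes (two-sided, no covariate), and p-values were adjusted by Benjamini-Hochberg across the tested probes. The steps were tested on simulated data. The number of arrays limits the precision. The median SE of a log2 fold was 0.165. A bound ("at least") sets the mean of the detected group against the mean of the lowest detected signal of each array of the other.

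The members, gene lists and tests were chosen with earlier results of these data known. Named genes are the members, the called genes and up to 4 genes with the smallest p of each list, and the 6 genes most like the mean embryonic and the mean adult profile. Defining markers, a gene with no probe, genes given for their brightness, and Sptb, Ank1 and Hoxc10 for their order on the null arrays were named beside them after their values were seen. Each gene outside the members was read by its brightest tested probe. Promoter letters and neighbours came from RefSeq tables. The 18 alternatives covered background correction, offset, normalization, the deposited log2 table, the filter, the test, array weights, a replicate block and leaving out each array, and 3 were added after seeing the data.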

Additional observations from a re-analysis of the deposited data

Results flagged for a closer look

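Of the 32 groups of 4 arrays examined over the 16 globin probes above background, 1 held an array far from the other 3: on an Hbb-bs probe, wildtype 2 stood above the rest of the wildtype arrays by 0.837 of the range of the group. Chance alone gives such a gap in about 1 in 20 groups.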

How the results depend on the processing

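The log2 folds of the 6 member probes were above 0 in all 107 fits of the 18 alternatives (Hbb-b2 was not tested when detection on all 8 arrays was required), and 92 gave the same call. Hbb-bh1 was no longer called under scaling by median absolute deviation (3.13), with the deposited log2 table (3.02), with no filter on dim probes (2.97) or under the methods' test without moderation (2.97), so the count of member probes called was 0 under those 4, against 1. With array weights it was 4, since Hba-x (2.77) and both Hbb-y probes (2.71 and 2.72) were called too. It stayed 1 when the 10 Hbb-bs and Hbb-bt probes were counted. Leaving out single arrays gave log2 folds of 1.97 to 2.86 for Hba-x, 1.82 to 2.77 and 1.79 to 2.80 for the Hbb-y probes, 2.54 to 3.41 for Hbb-bh1, 1.78 to 2.86 for Hba-a1 and 1.92 to 3.34 for Hbb-b2. The count of member probes called ranged from 0 to 4, at 4 without null 2 and at 0 without wildtype 1, 2 or 3 or null 1 or 3, and 0 to 0 were called lower. The embryonic minus adult difference was 0.09 over all detected probes 0.10 with Hbb-bs and Hbb-bt among the adult genes and 0.25 with both changes, where settings with Hbb-bs and Hbb-bt were chosen after seeing the data. The cause of these changes was not tested.

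Over all probes, 149 were called (63 higher, 86 lower). The count was 10 (8 and 2) under scaling by median absolute deviation, 79 (19 higher) with no normalization, 65 (25 and 40) with the deposited log2 table, 97 (52 lower) with detection on all 8 arrays, 53 (20 and 33) under the methods' test and 267 (124 and 143) with array weights. Leaving out single arrays gave 59 to 150 called, 22 to 83 higher and 37 to 76 lower, with the count moved by over 1.5 times without wildtype 1 (82) or 3 (59), or null 2 (97), 3 (91) or 4 (81). The median log2 fold of all probes was -0.22 with no normalization and -0.11 in the deposited log2 table.

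The genotypes share replicate numbers, and same-numbered arrays deviated together at correlations of 0.0738, 0.457, 0.256 and -0.313 for numbers 1 to 4. Null 1 and 2 correlated best with the wildtype array of their own number, and null 3 and 4 with another. So few correlations cannot decide whether the numbers pair the arrays. With the replicate block 108 probes were called (50 higher, 58 lower), the brighter Hbb-y probe had a log2 fold of 2.27 (limma adjusted p = 0.153) and no member call changed. The SE fell for Hba-x (0.46 to 0.40), Hbb-bh1 (0.49 to 0.38) and Hbb-b2 (0.90 to 0.58). It did not fall for the Hbb-y probes (0.52 and 0.55) or Hba-a1 (0.58 to 0.59).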
